A study of Homo sapiens with 2 samples.

Results

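The genes described here are 55 genes of the WNT pathway: the WNT ligands, their receptors, the proteins that secrete, block or strengthen the ligands, and a few target genes and nuclear effectors. Their members were listed by name, and a probe was counted under a gene when the RefSeq accession in the array annotation belonged to it. This gave 68 probes for the 55 genes, of 58201 probes and 22439 named genes on the array. A single probe stood for 44 of the genes.

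WNT proteins are secreted lipid-modified ligands that bind a frizzled receptor and, in the canonical branch, an LRP5 or LRP6 co-receptor. Binding stops the destruction complex of AXIN, APC and glycogen synthase kinase from degrading beta-catenin, which then joins TCF and LEF proteins on DNA and switches on targets such as AXIN2. In human pluripotent cells the pathway is known for its part in leaving pluripotency towards mesendoderm, and its inhibition favours neural ectoderm.

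The RNA came from H9 cells, an established human embryonic stem cell line, maintained for both groups on Matrigel, an extracellular matrix preparation, in the serum-free medium TeSR-E8. Substate 1 cells, at passage 35, formed compact colonies that stained strongly for the pluripotency marker R-10G, a keratan sulphate epitope, and almost not for vimentin. Substate 2 cells, at passage 50, formed colonies with wide gaps between cells, weak for the epitope and positive for vimentin. Each substate had 1 single-colour array (Cy3), so the substates could not be compared by a test, and every difference below lacks replicates. The study's methods place the move from vitronectin to Matrigel at passage 35, so substate, passage and time on Matrigel cannot be told apart. The methods read here do not say how cells of each substate were collected for the array RNA.

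Spots well above background made up 57.4% of 60901 (controls left out) in substate 1 and 54.7% in substate 2. The arrays shared a slide and a scan and differed in position. Among 283 measured probes printed several times, the difference between single spots of both arrays had a median SD of 0.072 on the log2 scale, and of 0.22 for the 12 of them that were dim (mean normalised log2 signal under -1). Signals below are normalised log2 signals, in which 0 is the 75th percentile of the array's probes, and differences are substate 2 minus substate 1. A probe was called measured when it was well above background on both arrays. As probes differ in how well they bind, no level of a gene was set against that of another gene.

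Of the 40 measured member probes 31 were within 1.5-fold between the substates, a smaller share than the 26580 of 29883 measured probes of the array. The exceptions were mainly higher in substate 2. All 12 receptors and all 5 targets and nuclear effectors were measured, whereas 11 of the 18 ligands were well above background on neither array. FZD10, FRZB, WLS and LEF1 were more than 2-fold higher in substate 2, and AXIN2 was more than 1.5-fold higher on both of its probes. RNF43 and FZD5 were the only measured members at least 1.5-fold lower, FZD5 only just, and not under every scaling.

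Of the 68 probes 40 were measured (58.8%, against 51.3% of all probes and 68.5% of probes with a gene name). Another 2 were well above background in substate 1 only and 1 in substate 2 only, as were 2455 and 828 of all 58201 probes. On neither array were 25 (36.8%, against 43.0% of all probes and 27.1% of probes with a gene name). By gene, 32 members had a measured probe, 3 were above background on a single array (WNT4, WNT10B and SFRP4), and 20 on neither. Of the 22439 named genes of the array 16001 had a measured probe, 964 were above background on a single array and 5474 were on neither.

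**Figure D1:**
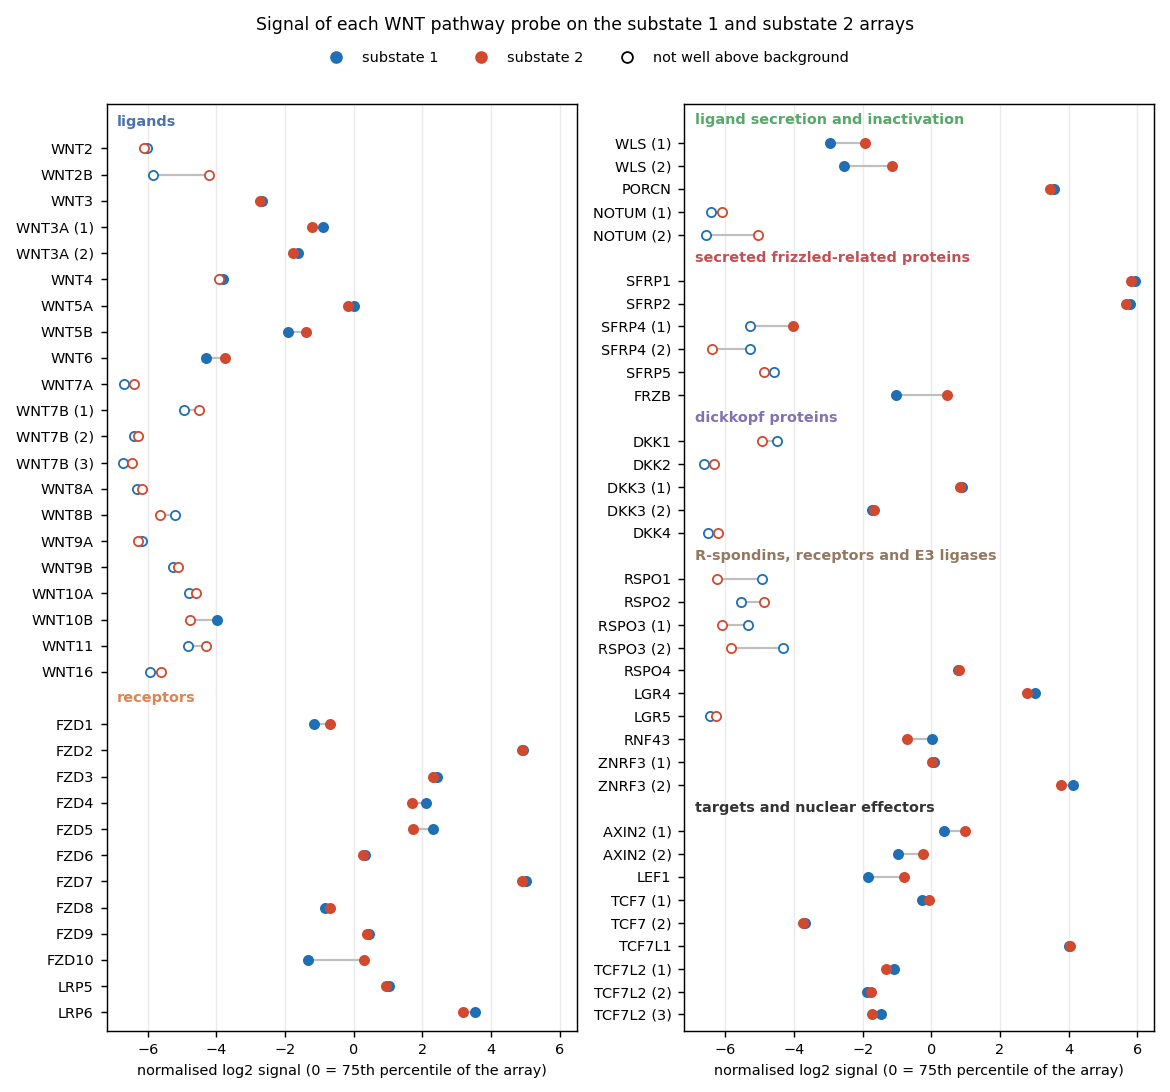
Normalised log2 signal of each of the 68 probes on the substate 1 array (blue) and the substate 2 array (red), by role, with a grey line joining both values and numbers in brackets telling probes of the same gene apart. Open circles were not well above background, which held for 25 probes on both arrays, and most filled pairs lie close together.

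At least 2-fold higher in substate 2 were 5 of the 40 measured member probes, where 0.85% of the 29883 measured probes of the array were (254 probes). By gene, 4 of the 32 measured members were, against 149 of the 16001 named genes with a measured probe. No member probe was 2-fold lower, a size reached by 1.26% of measured probes (378). At 1.5-fold, 7 member probes were higher against 4.68% of measured probes, and 2 were lower against 6.37%. The other 31 were within 1.5-fold, as were 26580 of the 29883 measured probes. The median difference of the 40 probes was -0.06, with 16 above 0 and 24 below. Over all measured probes the median was 0.06, with 16733 above 0 and 13150 below. Over the 32 genes the median was -0.07, with 13 above 0 and 19 below, against 0.08 over the 16001 named genes with a measured probe. Thus the centre of the list lay slightly below 0 while its upper end held the larger differences. As the members were listed with earlier results of these data known, these shares do not test for an excess.

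The scanner software attaches an error to each spot signal, which for a difference between the arrays came to 0.20 to 0.40 on the log2 scale for the 40 probes (median 0.21). This error covers the spot alone, leaving out cell culture, RNA extraction and dye labelling. The difference exceeded 2 such errors for 12 probes, 9 higher and 3 lower in substate 2, where 10.2% and 9.94% of the 29883 measured probes of the array did so. In 7 genes with several measured probes, the probes of a gene differed from each other by 0.12 to 0.37 (median 0.23).

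**Figure D2:**
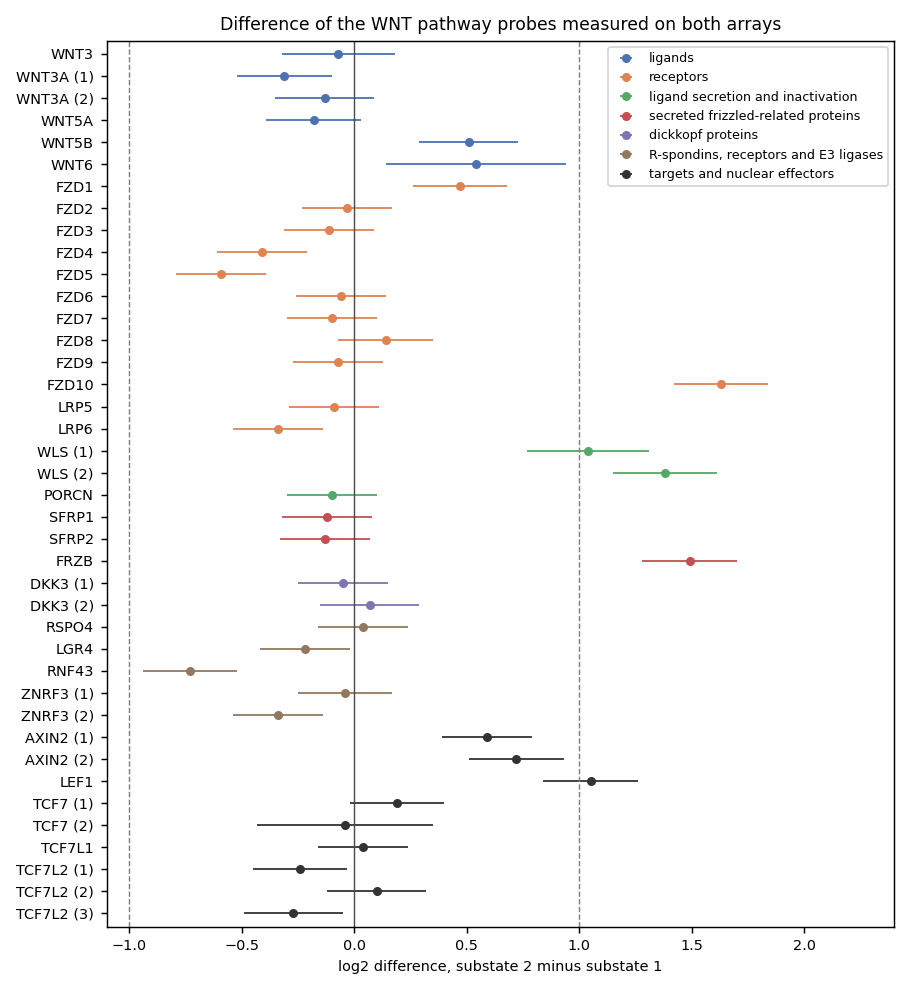
Log2 difference (substate 2 minus substate 1) of the 40 measured member probes, coloured by role, with bars of 1 error from the scanner software and dashed lines at 2-fold. FZD10, FRZB, both WLS probes and LEF1 lie to the right of the 2-fold line, and no probe lies to the left of the other.

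Of the 7 member genes past 1.5-fold, 5 matched an entry in the RefSeq promoter table (GRCh38.p14): WLS, FRZB, LEF1, RNF43 and FZD5. Entries for FZD10 and AXIN2 were not matched. The 250 bases before each gene's start are printed because these genes held the larger differences, and they were searched on both strands for the core of the TCF and LEF binding motif (CTTTGA or CTTTGT) and for the E-box bound by ZEB1 and ZEB2 (CACCTG, which reads CAGGTG on the other strand). Capitals mark a match, and no match of one motif can cover the same bases as a match of the other.
WLS promoter, chr1:68232524-68232773, minus strand: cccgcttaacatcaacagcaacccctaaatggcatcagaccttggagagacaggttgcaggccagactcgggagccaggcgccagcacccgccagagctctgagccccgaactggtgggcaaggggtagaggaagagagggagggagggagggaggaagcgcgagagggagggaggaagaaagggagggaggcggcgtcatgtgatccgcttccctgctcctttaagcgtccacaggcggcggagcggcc
FRZB promoter, chr2:182866638-182866887, minus strand: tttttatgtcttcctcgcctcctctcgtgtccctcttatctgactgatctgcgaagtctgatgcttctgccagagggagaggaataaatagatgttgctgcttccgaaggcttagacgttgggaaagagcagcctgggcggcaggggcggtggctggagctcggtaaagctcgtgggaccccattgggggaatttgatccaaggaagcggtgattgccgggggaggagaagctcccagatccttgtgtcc
LEF1 promoter, chr4:108166302-108166551, minus strand: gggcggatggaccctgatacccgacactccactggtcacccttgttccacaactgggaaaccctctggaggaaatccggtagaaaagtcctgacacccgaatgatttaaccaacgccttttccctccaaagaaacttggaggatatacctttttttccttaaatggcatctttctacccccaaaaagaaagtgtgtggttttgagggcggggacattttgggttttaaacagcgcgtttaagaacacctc
RNF43 promoter, chr17:58417535-58417784, minus strand: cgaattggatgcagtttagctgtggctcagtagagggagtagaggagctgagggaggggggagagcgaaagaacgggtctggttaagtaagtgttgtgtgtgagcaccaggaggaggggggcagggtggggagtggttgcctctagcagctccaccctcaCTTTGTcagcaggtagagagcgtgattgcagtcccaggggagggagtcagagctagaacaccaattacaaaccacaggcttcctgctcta
FZD5 promoter, chr2:207769907-207770156, minus strand: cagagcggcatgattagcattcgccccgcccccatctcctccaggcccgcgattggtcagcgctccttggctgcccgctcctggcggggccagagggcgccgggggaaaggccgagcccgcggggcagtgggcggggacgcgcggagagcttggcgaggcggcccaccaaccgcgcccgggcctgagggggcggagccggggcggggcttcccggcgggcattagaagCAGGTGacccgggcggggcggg
The promoters of WLS, FRZB and LEF1, all higher in substate 2, held neither motif. RNF43 held 1 match to the TCF and LEF core and FZD5 held 1 E-box. Of 35116 promoters of the same length, 22.8% held the former motif and 17.5% the latter. A match here describes the letters and is not a binding site shown in these cells.

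Of the ligands 5 of 18 genes were measured, by 6 of 21 probes. For these probes the differences ran from -0.31 to 0.54 with a median of -0.10, and none reached 1.5-fold. WNT3, which is required for primitive streak formation in the mouse, gave -2.66 in substate 1 and -2.73 in substate 2, which differ by -0.07. WNT3A, the standard canonical ligand, stood at -0.90 and -1.22 by one probe and at -1.62 and -1.76 by the other, differences of -0.31 and -0.13. Of these 3 probes the first of WNT3A was the one whose difference was larger than its error (0.21).

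WNT5A, a ligand mostly of the beta-catenin-independent branch, gave 0.01 in substate 1 and -0.17 in substate 2, a difference of -0.18 that lay within its error of 0.21. Its relative WNT5B gave -1.90 and -1.39, 1.42-fold higher in substate 2 with a difference of 0.51 and an error of 0.22. WNT6 gave -4.29 and -3.75, and its difference of 0.54 carried an error of 0.40 because both signals were near the lowest that counted as above background. WNT5B was thus the measured ligand that stood clearest of its error.

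Seen in substate 1 only were WNT4 and WNT10B. WNT4 gave -3.80 in substate 1 and -3.92, not well above background, in substate 2. Its bound was 1.09-fold lower in substate 2, but the difference of -0.12 lay within its error of 0.46, so its direction was not resolved. For WNT10B the signals were -3.98 and -4.76, a bound of 1.16-fold lower, with a difference of -0.78 and an error of 0.63. Neither bound is far from 1, and neither takes the error into account. WNT2, WNT2B, WNT7A, WNT7B, WNT8A, WNT8B, WNT9A, WNT9B, WNT10A, WNT11 and WNT16 were not well above background on either array, so no fold is given for them.

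Receptors were measured without exception, and 10 of the 12 were within 1.5-fold. FZD10 held the largest difference of all measured members: its signal was -1.32 in substate 1 and 0.31 in substate 2 (intensities of 125.5 and 341.8), 3.10-fold higher, with a difference of 1.63 and an error of 0.21. Among the 29883 measured probes of the array 48 had a larger difference. FZD5 lay at the other end, with 2.32 in substate 1 and 1.73 in substate 2, a difference of -0.59 with an error of 0.20. FZD4, which also serves as the receptor for norrin, was 1.33-fold lower, with signals of 2.10 and 1.69.

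FZD7, a frizzled known as a receptor of canonical signals in human embryonic stem cells, gave 5.01 and 4.91. FZD2 gave 4.94 and 4.91. The differences of -0.10 and -0.03 were smaller than the error of 0.20, so neither receptor could be told apart between the arrays. FZD1 was 1.38-fold higher in substate 2, with signals of -1.15 and -0.68. FZD3 gave 2.42 and 2.31, FZD6 0.34 and 0.28, FZD8 -0.84 and -0.69, and FZD9 0.46 and 0.39. All 4 of these differences were within their errors.

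LRP6, a co-receptor of the canonical branch, was 1.26-fold lower in substate 2, with 3.54 in substate 1 and 3.20 in substate 2. LRP5, the other co-receptor, gave 1.04 and 0.94, a difference of -0.09. Across the 10 frizzleds the median difference was -0.07, with 3 above 0 and 7 below, and FZD10 was the one frizzled past 2-fold.

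**Figure D3:**
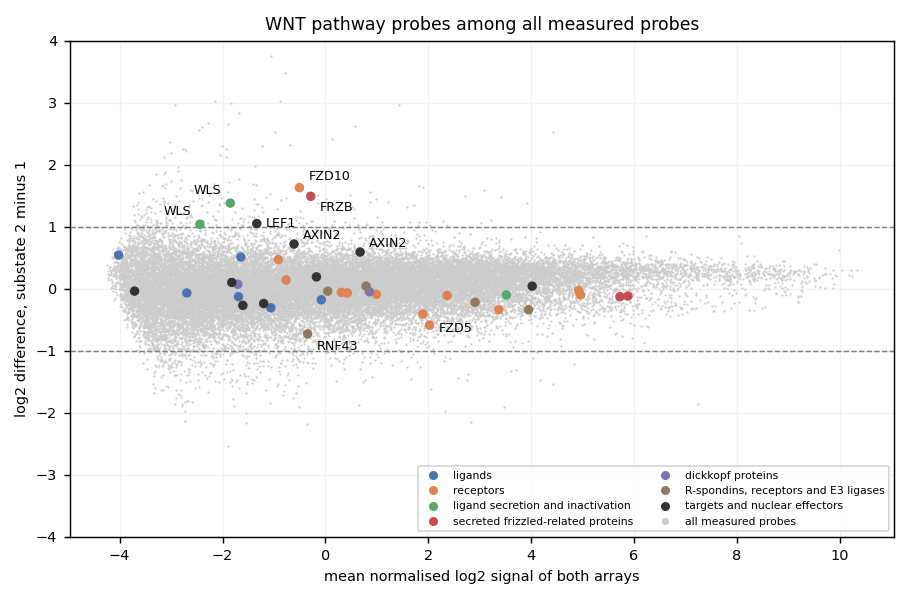
Log2 difference (substate 2 minus substate 1) against the mean normalised log2 signal of both arrays for all 29883 measured probes (grey; 1 lies outside the plotted range) and the 40 member probes (coloured by role), with dashed lines at 2-fold. FZD10 and FRZB stand above most grey points of similar signal, and RNF43 and FZD5 are the lowest members.

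WLS, the carrier that takes lipid-modified WNT proteins to the cell surface, was higher in substate 2 by both of its probes. One probe gave -2.96 in substate 1 and -1.92 in substate 2, a difference of 1.04 (error 0.27), or 2.06-fold. By the other probe the signals were -2.54 and -1.16, a difference of 1.38 (error 0.23), or 2.61-fold. In contrast, PORCN, the acyltransferase that attaches the lipid, gave 3.57 and 3.47, a difference of -0.10. NOTUM, the secreted enzyme that removes the lipid again, was not well above background by either of its 2 probes.

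The secreted frizzled-related proteins bind WNT ligands outside the cell. FRZB, also called SFRP3, had a signal of -1.03 in substate 1 and 0.46 in substate 2 (intensities of 153.9 and 379.6), 2.81-fold higher with a difference of 1.49 and an error of 0.21, and 64 measured probes of the array had a larger difference. SFRP1 was printed 10 times on each array and gave 5.94 ± 0.043 in substate 1 and 5.82 ± 0.036 in substate 2 (SD over 10 spots of 1 array). Its difference of -0.12 was 2.08 times the SD of a difference between single spots, and below the error of 0.20 from the scanner software. SFRP2 gave 5.79 and 5.66, a difference of -0.13. Of the 3 measured members of the family FRZB was thus the one past 1.5-fold.

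SFRP4 was at the limit of measurement. Its signal by 1 probe was -5.27 in substate 1, not well above background, and -4.03 in substate 2 (difference 1.24, error 0.62). The bound was 1.33-fold higher, with that error left out, and its other probe stood above background on neither array. SFRP5 was not well above background on either array.

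Among the dickkopf proteins, of which DKK1, DKK2 and DKK4 act on LRP5 and LRP6, only DKK3, a divergent member, was measured. Its probes gave 0.88 and 0.83, and -1.74 and -1.67, differences of -0.05 and 0.07 that were both within the error. DKK1, DKK2 and DKK4 were not well above background on either array. DKK1 is itself a target of WNT signalling, and its signals were -4.50 and -4.92.

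R-spondins bind LGR receptors and keep the E3 ligases RNF43 and ZNRF3 from removing frizzleds from the cell surface. RNF43 had the largest negative difference of the measured members, with 0.02 in substate 1 against -0.71 in substate 2, 1.66-fold lower (difference -0.73, error 0.21). ZNRF3, its paralogue, gave 0.07 and 0.02 by one probe and 4.12 and 3.78 by the other, differences of -0.04 and -0.34 (errors 0.21 and 0.20). Both ligases act on frizzleds in the same way, but the RNF43 difference was larger than that of either ZNRF3 probe.

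RSPO4 was the measured R-spondin and differed by 0.04, with 0.77 in substate 1 and 0.81 in substate 2. LGR4, the receptor for R-spondins that was measured, gave 3.02 and 2.80, a difference of -0.22 and 1.17-fold lower. RSPO1, RSPO2, RSPO3 and LGR5, a stem cell marker of the gut, were not well above background on either array.

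AXIN2, a scaffold of the destruction complex and the target gene most used as a readout of beta-catenin signalling, gave 0.38 in substate 1 and 0.97 in substate 2 by one probe, 1.51-fold higher. By its other probe the signals were -0.97 and -0.25, 1.65-fold higher. The differences of 0.59 and 0.72 went the same way and carried errors of 0.20 and 0.21. LEF1, a DNA-binding partner of beta-catenin that is also induced by it, gave -1.86 and -0.81, 2.06-fold higher with a difference of 1.05 and an error of 0.21. RNF43 and ZNRF3, which beta-catenin signalling is also known to induce, were by contrast not higher by any of their probes. Only the 1 probe of RNF43 was lower by more than 2 errors, as the ZNRF3 differences were -0.04 (error 0.21) and -0.34 (error 0.20). What these targets say of signalling was not tested.

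The other DNA-binding partners differed less. TCF7L1, mainly a repressor in embryonic stem cells, had intensities of 5010 and 4515 and differed by 0.04 after normalisation, within its error of 0.20. TCF7 gave -0.27 and -0.08 by one probe and -3.69 and -3.73 by the other, differences of 0.19 and -0.04. TCF7L2 had 3 probes, with -1.08 and -1.32, -1.87 and -1.77, and -1.47 and -1.74, differences of -0.24, 0.10 and -0.27. DKK3, TCF7 and TCF7L2 were the 3 genes whose measured probes did not share a sign, and of the 4 TCF and LEF genes LEF1 was the only one past 1.5-fold.

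The Z-score of the study's methods runs over all probes, including those near background, and its limits of 2 and -2 corresponded to differences of 1.34 and -1.19. Past a Z-score of 2 were 5 of the 68 member probes, against 3.03% of all 58201 probes, and past -2 were 2, against 3.30%. Of these 7 probes 3 were measured, namely those of FZD10 (2.47) and FRZB (2.24) and the second WLS probe (2.07). The other 4 were well above background on neither array. WNT2B had a Z-score of 2.48 with intensities of 5.40 and 14.8, and 1 NOTUM probe passed the limit with 3.28 and 8.30. RSPO1 had -2.19 with 10.3 and 3.63, and 1 RSPO3 probe had -2.49 with 15.6 and 4.85. The lowest intensity that counted as well above background for any single probe was 14.5 in substate 1 and 15.0 in substate 2. LEF1 had a Z-score of 1.54 although it was measured and 2.06-fold higher.

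A further 71 genes of the pathway were listed by role, of which 69 had probes, 100 in all. Measured were 86 probes, with a median difference of 0.11, 53 above 0 and 33 below. None was 2-fold higher against 0.85% of all measured probes, and 1 was 2-fold lower against 1.26%. That gene was APC2, a homologue of the destruction complex scaffold APC that is known mainly from neural tissue, with signals of -2.20 and -3.42 (difference -1.22, error 0.29). At 1.5-fold, 5 probes were higher and 6 were lower, near the shares of all measured probes (4.68% and 6.37%).

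The co-receptors and other surface components had 17 measured probes with a median of -0.10. ROR2, a receptor kinase for WNT5A, gave -0.18 and 0.81, 1.98-fold higher. Its second probe, seen on the substate 2 array alone, was higher with a bound of 1.62-fold. GPC4, a cell surface proteoglycan, was 1.67-fold lower, with intensities of 20048 and 10539. KREMEN1, a dickkopf receptor, had a bound of 1.25-fold lower by a probe above background in substate 1 (difference -0.32, within its error of 0.44). It differed by 0.02 by its measured probe. ADGRA2, which works with RECK in WNT7 signalling, was 1.76-fold higher, with -2.41 and -1.59. Among 8 measured probes of other secreted antagonists (median 0.11), WIF1, which binds WNT ligands directly, was 1.82-fold lower, with -2.04 and -2.90. By its measured probe PYGO1, a partner of beta-catenin through BCL9, was 1.75-fold higher, with -2.36 and -1.55.

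The 23 measured probes of beta-catenin and its nuclear partners had the highest median of the lists, 0.34, with 19 above 0. Of the 29883 measured probes of the array 16733 were above 0. In this list 1 probe was past 1.5-fold in each direction. CTNNB1, the gene of beta-catenin, had differences of 0.35 and 0.54, each with an error of 0.20. Among all measured probes 5190 and 1761 had larger differences than these. The destruction complex and its kinases had a median of 0.08 over 12 probes, dishevelled and feedback regulators 0.10 over 8, and planar cell polarity genes -0.08 over 11. Of the commonly used targets outside the members, 7 probes were measured with a median of 0.14, 5 above 0 and 2 below. The ends of this list were CCND1, 1.44-fold higher (difference 0.52, error 0.20), and MSX1, 1.52-fold lower (difference -0.61, error 0.35). The probe of SP5, another widely used target, was not well above background on either array.

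**Figure D4:**
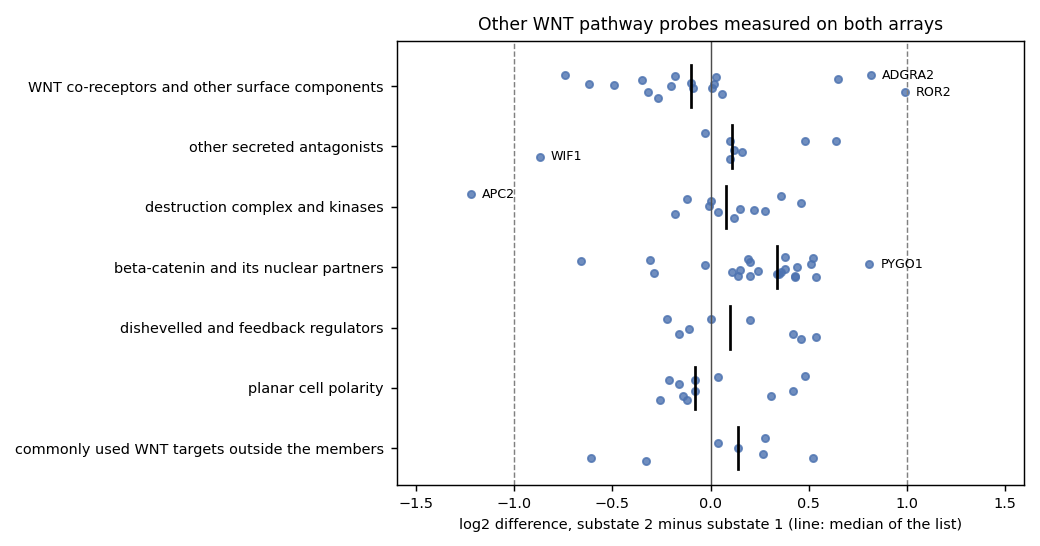
Log2 difference (substate 2 minus substate 1) of the 86 measured probes of the other pathway genes, 1 row of points per list, with a black line at each list's median and dashed lines at 2-fold. APC2 lies beyond 2-fold on the left, no probe does so on the right, and points over 0.8 from 0 are named.

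The pluripotent label was checked against its markers. All 10 pluripotency probes were measured, with differences between -0.35 and 0.42 and summed intensities before normalisation of 502370 in substate 1 and 482320 in substate 2, and POU5F1, NANOG and SOX2 were among them. Of the 7 fibroblast probes 3 were measured, namely those of THY1 (intensities of 48204 and 39218), COL1A2 (3207 and 1992) and COL1A1 (987 and 618), with differences of -0.11, -0.50 and -0.49. COL3A1, DCN and LUM were not well above background on either array.

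Markers of other states were looked up in the same way, and some of them differed between the substates. Of 14 neural ectoderm probes 6 were measured, 3 were above background in substate 2 only (SOX1, HES5 and POU3F2) and 5 on neither array. Against its substate 1 signal, not well above background, POU3F2 was 13.3-fold higher (difference 3.73, error 0.37). LHX2 (difference 2.32) and FABP7 (1.44) were more than 2-fold higher. The other 4 measured probes were within 1.5-fold, those of POU3F1 (-0.14), SOX3 (0.03) and NES (0.33 and 0.43). PAX6, ZIC1 and SIX3 were well above background on neither array. The summed intensity of the list was 24220 in substate 1 and 23495 in substate 2. Of 12 mesenchymal probes 7 were measured, and the sum was 8111 and 22590. VIM (2.53) and both ZEB1 probes (2.41 and 2.67) were more than 2-fold higher. ZEB2, seen on the substate 2 array alone, was higher with a bound of 5.39-fold by 1 of its probes. CDH2 was 1.76-fold and 1.77-fold higher and SNAI1 differed by 0.20, whereas FN1, seen on the substate 1 array alone, was lower with a bound of 1.55-fold. Among 12 epithelial probes, 11 of them measured, CDH1 (-1.47) and 1 GRHL2 probe (-1.12) were more than 2-fold lower, and the sum was 99508 and 78943. EPCAM was 1.74-fold, ESRP1 1.47-fold and RAB25 1.36-fold lower, CLDN6 differed by -0.05, and the other GRHL2 probe was above background in substate 1 only. The 5 probes of KRT8 and KRT18, the only ones above 0, differed by 0.13 to 0.54. With these included the median of the list was -0.05. Of 10 mesendoderm probes 3 were measured, with sums of 380 and 372. FOXA2 was 1.71-fold higher (difference 0.77, error 0.25), and CXCR4 and LHX1 differed by -0.15 and -0.05. The probes of TBXT, MIXL1, EOMES and SOX17 were on neither array well above background, whereas MESP1 was above it in substate 2 only. Against its substate 1 signal, not well above background, MESP1 was 2.21-fold higher (difference 1.14, error 0.42). Of 8 neural crest probes 4 were measured, with differences of 0.02 to 0.37 and sums of 1912 and 1837. The part of such cells in the WNT differences was not tested, and in bulk RNA more cells of a kind cannot be told apart from more RNA per cell.

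Noncoding genes named after a member as its antisense or divergent transcript were looked up after the member values were seen. FZD10-AS1, a noncoding neighbour of FZD10, had 3 probes. The measured one gave -1.89 in substate 1 and -0.72 in substate 2, 2.25-fold higher (difference 1.17, error 0.22), and the other 2 were above background on neither array. FZD4-DT, beside FZD4, gave differences of 0.22 and 0.18, within their errors of 0.27 and 0.21, whereas FZD4 itself differed by -0.41. LEF1-AS1 was on neither array well above background. FZD10 and FZD10-AS1 were thus both higher in substate 2, and FZD4-DT could not be told apart between the arrays.

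Another choice of scaling moved the higher genes less than normexp, another background correction with an added constant, did. Such a constant alone pulls the differences of dim probes towards 0, and its part was not separated from that of the background model. The FZD10 difference was between 1.63 and 1.68 with centring on the median, quantile normalisation or loess centring, and 1.16 with normexp, which models background and signal together and adds a constant to every signal. With normexp FRZB was at 1.27, LEF1 at 0.66, the mean of the WLS probes at 0.63 and that of the AXIN2 probes at 0.40, so that FZD10 and FRZB were still past 2-fold and WLS and LEF1 were not. All 7 genes kept their direction, but the 1.5-fold limit (0.58 on the log2 scale) was no longer reached by FZD5 with median centring (-0.54) or normexp (-0.56), nor by RNF43 (-0.56) and AXIN2 with normexp.

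**Figure D5:**
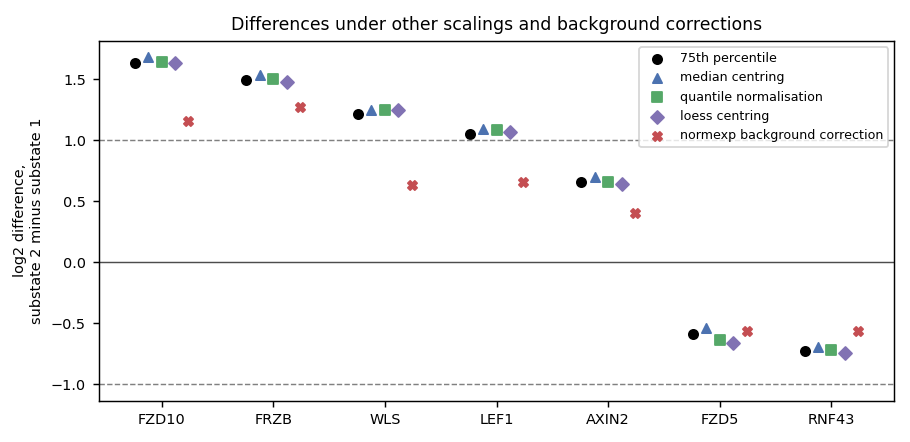
Log2 difference (substate 2 minus substate 1) of the 7 member genes past 1.5-fold under the scaling by the 75th percentile and 4 alternatives, with dashed lines at 2-fold and the mean over measured probes where a gene has several. For FZD10, FRZB, WLS, LEF1 and AXIN2 the normexp values lie nearer to 0 than the 4 scalings, and FZD5 runs from -0.66 to -0.54 over all settings.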

How the data were processed

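RNA of 2 H9 samples was read on Agilent SurePrint G3 arrays. The authors deposited the scanner intensity of each spot. Per the file headers, Feature Extraction 11.5.1.1 (protocol GE1_1105_Oct12) subtracted background, removed spatial trends and marked spots well above background. A matrix of log2 values, also deposited by the authors, holds signals which per their methods were floored at 1 and shifted by the 75th percentile of each array. These differed from the values computed here by a constant of 0.0065 and 0.0052 per array, for 100% of 58201 probes within 0.01; their direction is by array and carries no centring across arrays.

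Here, processed intensities were floored at 1 (reached by 0 spots), log2 was taken, outlier spots (71 and 101) were left out, repeated spots were averaged, and the array's 75th percentile without controls (intensities of 313.7 and 275.4) was subtracted. No spot was saturated. Gene values are means over measured probes. A probe above background on 1 array has a bound: the brighter signal against the dim one or, where that is larger, against the lowest signal above background on the dim array. Bounds leave out the error of the scanner software. They are not strict minima, as some probes not well above background had signals above that lowest one. The Z-score is the difference minus its mean over its SD, over all probes. Probes were named through RefSeq accessions on GRCh38.p14 (31104 of 58201, 53.4%); the array is annotated on hg19, so probe positions are not given.

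With 1 array per substate there is no test or p-value, and the number of arrays limits the precision. Members and gene lists were chosen with earlier results of these data known, and the 1.5-fold limit was added after values were seen. Every member above background on an array is named with values. Other pathway and marker genes are named past 2-fold (also by a bound), among the 5 largest differences, or as markers. Beyond that rule CTNNB1, GPC4, KREMEN1, SP5, CCND1 and MSX1 were chosen after their values were seen. Alternatives were median, quantile and loess (span 0.3) scaling, normexp (limma 3.58.1, offset 50, on the median signal, as the files hold no mean signal), outlier spots kept, the series matrix, 2 other detection rules, the brightest probe, and Z-scores over measured probes. Scripts ran in Python 3.11.15 and R 4.3.3 and were tested on simulated data.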

Additional observations from a re-analysis of the deposited data

How the results depend on the processing

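No paired analysis was possible because there was 1 array of each substate, which also left no replicate to leave out. The median difference of the measured member probes was between -0.10 and -0.01 under the alternatives, and the median over all measured probes was 0.042 higher with median centring and fell by 0.045 with loess centring. Of the 32 genes with a measured probe 27 kept their sign, and 5 changed it (DKK3, FZD2, RSPO4, TCF7L1 and WNT3), whose reported differences were at most 0.07 from 0 and which ranged from -0.18 (FZD2, loess centring) to 0.09 (DKK3 and WNT3, normexp). With normexp, which differed in background model, signal column and an added offset of 50, 2 member probes were 2-fold higher in place of 5, and 4 genes were past the lower Z-score limit in place of 2. That limit was also passed by 4 genes when the Z-score's mean and SD were taken over measured probes only. When detection asked only that a spot be significantly positive, 7 member probes were on neither array in place of 25, 54 were measured, 7 were 2-fold higher and 1 was 2-fold lower in place of 0. The other counts past 2-fold and past the Z-score limits stayed within 1.5 times their values. Probes near background have the largest relative error, so that differences between the arrays were not detectable for the 20 genes above background on neither array.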
